A study of Mus musculus with 10 samples.

Results

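The normal testis of the mouse at postnatal day 4 (P4) was described from bulk RNA sequencing of the 5 control libraries of a study of *Dis3*, the catalytic ribonuclease of the RNA exosome, out of 10 libraries in all. The 5 libraries were chosen by their label alone, which gives the genotype as Dis3 WT, and no measured value was used. The other 5 libraries, from testes in which *Dis3* was deleted in germ cells with *Ddx4-Cre*, were not analysed here. All control mice carried the strain label B6D2F1 and were 4 days old, and RNA from both testes of 1 mouse went into each library. For its immunoblots the paper describes the controls as siblings of the knockouts from 1 litter. Which sequenced control shared a litter with which knockout is not given. Nor is it given whether a control carried a floxed allele or Cre.

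A mouse testis at this age consists of solid cords. Sertoli cells, the somatic cells that nurse the germ line, fill the cords and still divide. Among them lie prospermatogonia and the spermatogonia that have just formed from them, and meiosis has not begun. Peritubular myoid cells, a contractile sheath, surround the cords. The interstitium holds fetal Leydig cells, which make androgens, together with stromal cells, vessels and macrophages. Whole testes were sequenced, so every level below is an average over all of these cells, and fewer cells of a type cannot be told apart from less RNA per cell.

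Levels are given as TPM: the counts of a gene were divided by its exon length, then scaled so that the genes of a library sum to 1000000. TPM thus allows genes to be compared with one another, on a scale that depends on the exon length of each gene. Each value is the mean ± SD over 5 libraries unless a library is named. The libraries held 35391042 to 41104912 counted reads. In a library of that depth the counting error of a typical gene was small: over the 10059 genes that averaged 10 TPM and 100 counts or more, the median coefficient of variation (CV, the SD as a percent of the mean) was 9.01%, of which counting alone would give 2.36%. With 5 libraries a two-sided exact sign-flip test cannot go below p = 0.0625, so differences between genes are given by their size, their SD and the number of libraries that share the direction.

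Defining genes of Sertoli, fetal Leydig and germ cells were present. *Amh*, the Sertoli cell hormone that removes the female duct, stood at 658 ± 35.2 TPM, *Sox9* at 439 ± 82.4 and *Cyp17a1*, an androgen-making enzyme of Leydig cells, at 270 ± 31.1. *Ddx4*, a germ cell RNA helicase, stood at 101 ± 21.6. *Foxl2*, the transcription factor of ovarian granulosa cells, was at 0.251 ± 0.208 TPM. *Dis3* itself measured 51.9, 54.1, 54.5, 64.4 and 63.2 TPM in control replicates 1 to 5, with a mean of 57.6 ± 5.76.

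The 5 libraries did not lie equally close to one another. Over 18732 genes with a mean of 1 TPM or more, Pearson's r of log2(TPM + 1) lay between 0.977 and 0.980 for the 3 pairs among replicates 1 to 3 and the pair of replicates 4 and 5. It lay between 0.964 and 0.968 for the 6 pairs across that line. Of 10314 genes at a mean of 10 TPM or more, 78 to 154 differed by over 1.5-fold within the 4 former pairs, and 530 to 804 did so across. A count was found for 33098 to 34607 genes in each of replicates 1 to 3 and for 29637 and 29926 genes in replicates 4 and 5. Neither the labels nor the methods name a batch or a litter that separates these libraries, and the cause of the split was not tested. For named genes of 1 TPM or more whose means differed by over 1.5-fold between the 2 sets, with no overlap, both sets are given. Every pair of libraries differed by more than counting noise, with a chi-square per degree of freedom of at least 4.36, and no library was left out or merged.

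By the defaults of the counting tool, reads that fit several places in the genome, or that lie on exons of several genes, are not counted. *Exosc6*, a core subunit of the RNA exosome, was at 0 in all 5 libraries. All of its exon bases lie, in the counting annotation, within exons of *Aars1* on the same strand. *Gapdh*, a glycolytic enzyme with many processed pseudogenes, measured 63.7, 74.4 and 68.5 TPM in replicates 1 to 3 and 5.90 and 3.36 TPM in replicates 4 and 5. *Rpl29*, a ribosomal protein gene, measured 288, 260 and 257 TPM in the former and 10.5 and 8.65 TPM in the latter. For *Gapdh*, 19.9% of the distinct stretches of 32 bases in its exons and splice junctions also occurred elsewhere in the mouse genome, and for *Rpl29* the share was 16.6%. These 3 genes, *Aars1*, *Gapdh* and *Rpl29*, were named after their values were seen, and the part that copies have in the difference between the libraries was not tested. Where over 15% of such stretches of a gene below occur elsewhere, or over 20% of its exon bases lie under another gene on the same strand, that is said beside it. Some list members that are not among the highest 6 of their list were likewise named after their values were seen: *Actg2*, *Ccna1*, *Cd163*, *Cldn11*, *Cnn1*, *Cyp11a1*, *Des*, *Dis3l*, *Gata1*, *Gli1*, *Lum*, *Meiob*, *Msh4*, *Nr2f2*, *Pgk2*, *Postn*, *Rhox5*, *Slc4a1*, *Spo11* and *Trf*, and so was *Rpl3l*.

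The transcriptome was broad, with a steep top. At 1 TPM or more in every control library stood 16114 of 54232 genes, among them 12989 protein-coding genes. At 10 TPM or more stood 9682 genes, which held 95.5% ± 0.245 of all TPM, and at 100 TPM or more 1587 genes, which held 63.3% ± 0.237. The 78 genes at 1000 TPM or more in every library made up 24.2% ± 0.749. The 25 highest genes of each library held 15.5% ± 0.896 of its TPM, and the 25 of highest mean held 15.4% ± 0.874, with a range of 14.4% to 16.2%.

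Transcripts of mitochondrial DNA were among the highest. *mt-Cytb*, which encodes a subunit of respiratory complex III, had the highest mean of all genes, at 10902, 10865, 12435, 15803 and 15222 TPM in replicates 1 to 5, a mean of 13046 ± 2349. In replicates 1 to 3 the unnamed entry ENSMUSG00000098178.1, described below, was higher, at 11269, 11290 and 13972 TPM. *mt-Nd1*, a subunit of complex I, followed at 11791 ± 1151 TPM and *mt-Co1*, a subunit of complex IV, at 8789 ± 2631 TPM. Of the stretches of *mt-Co1*, 62.9% were found elsewhere. The ribosomal RNAs of the mitochondrion, *mt-Rnr1* and *mt-Rnr2*, stood at 8688 ± 2633 and 6656 ± 390 TPM, and *mt-Nd2*, *mt-Nd5* (16.3% found elsewhere) and *mt-Nd6* were also among the 25. *mt-Co1* measured 6553, 6819, 7453, 12473 and 10649 TPM and *mt-Rnr1* 6753, 6502, 7064, 11729 and 11393 TPM. Both, like *mt-Cytb*, were higher in replicates 4 and 5 than in each of replicates 1 to 3. Together the 37 genes of mitochondrial DNA took 6.03%, 5.93%, 6.78%, 8.19% and 7.86% of TPM in replicates 1 to 5.

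The other named nuclear genes of the 25 had varied roles. *Eef1a1*, the translation elongation factor, stood at 5468 ± 452 TPM, with 30.7% of its stretches found elsewhere. *Hsp90ab1*, a chaperone, stood at 4091 ± 227, *Actb* at 3552 ± 212 with 21.5% found elsewhere, *S100a11*, a calcium-binding protein, at 3599 ± 127 with 15.2% found elsewhere, and the ribosomal protein genes *Rpl36* and *Rpl4* at 3781 ± 462 and 3380 ± 186, the former with 22.2% found elsewhere. *Sparc*, a secreted matrix glycoprotein, measured 4272, 4399, 4274, 3871 and 3925 TPM in the 5 libraries. *Gstm1*, a glutathione transferase, stood at 3205 ± 414 TPM with 20.3% found elsewhere. The group of 25 also held genes that are known from Sertoli cells of the young testis. *Defb19*, a beta-defensin gene, measured 5309, 4949, 4159, 5308 and 5367 TPM. *Aard* measured 3118, 3008, 2803, 3047 and 2906 TPM and was higher than *Amh* 4.54-fold ± 0.406 within a library. The 82 ribosomal protein genes together took 5.19% ± 0.301 of TPM, with levels from 1.21 TPM for *Rpl3l*, the form known from striated muscle, to the 3781 TPM of *Rpl36*.

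Several of the highest entries are short or repeated features. *Gm23119*, a small Cajal body RNA gene of 140 bases, stood at 9923 ± 901 TPM, with 19.3% of its stretches found elsewhere. *H2ac15*, a replication-dependent histone H2A gene of 393 bases, stood at 9865 ± 749 TPM, and 69.3% of its stretches occur elsewhere. The processed pseudogenes *Gm7665* and *Gm9794* stood at 4611 ± 309 and 3224 ± 129 TPM, with 69.9% and 71.4% found elsewhere. Entries without a current gene name were ENSMUSG00000098178.1, with 1831 bases on chromosome 17 from 39846958 to 39848788, at 12226 ± 1327 TPM, and ENSMUSG00000065911.1, with 338 bases on chromosome 15 from 93234363 to 93234700, at 5539, 6375, 7369, 10762 and 9837 TPM. A further entry, ENSMUSG00000076258.1, has only 57 bases and measured 4652, 4071, 5488, 1749 and 2147 TPM. Positions are those of the counting annotation on GRCm38. The level of this last entry was lower in replicates 4 and 5 than in the others. Copies elsewhere were not searched for entries given only by an ID.

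**Figure D1:**
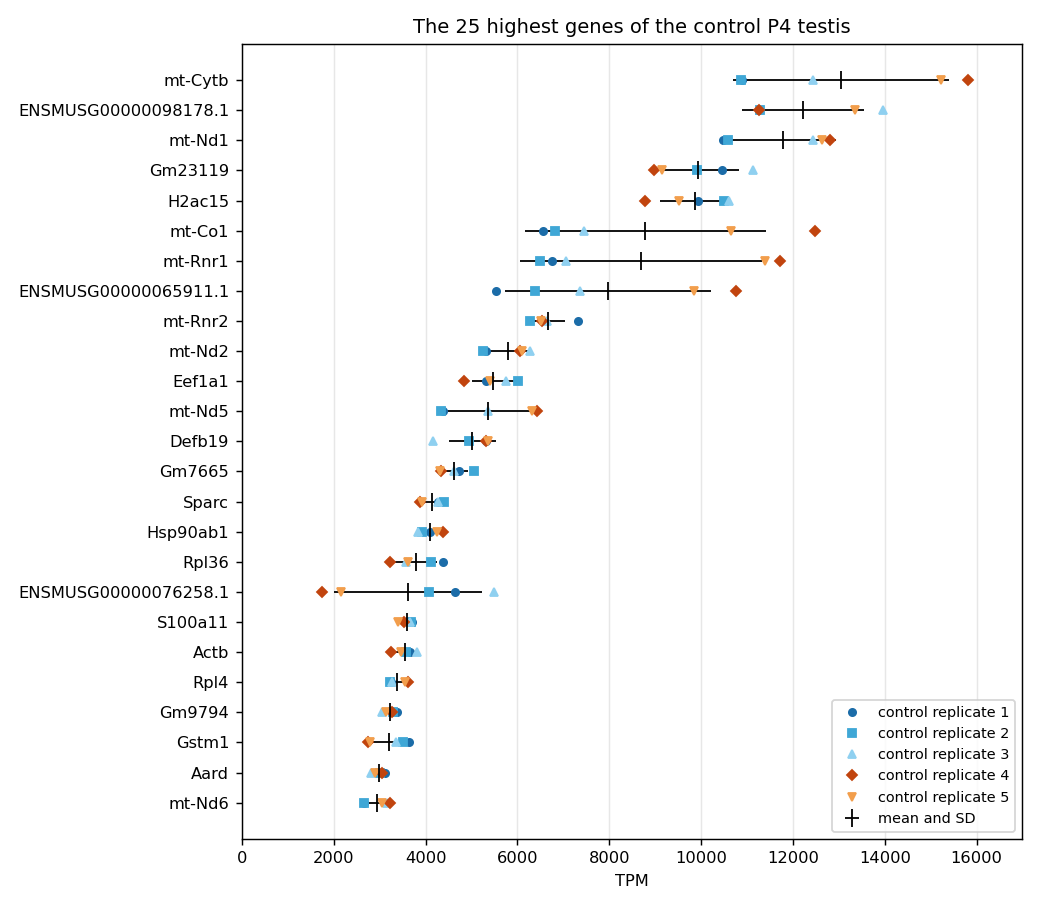
TPM (x axis) of the 25 genes with the highest mean in the 5 control libraries (y axis), with a point for each replicate and the mean and SD in black. mt-Cytb leads by its mean, 13046 TPM, and mt-Cytb, mt-Co1, mt-Rnr1 and ENSMUSG00000065911.1 lie higher in replicates 4 and 5 than in replicates 1 to 3.

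Protein-coding genes held 86.7% ± 0.335 of TPM and 96.3% ± 0.0690 of counts. Processed pseudogenes came next with 4.01% ± 0.184 of TPM against 0.672% of counts. Genes whose identifier had no match in GENCODE M39, from which names and classes were taken, held 3.26% ± 0.243 of TPM. The mitochondrial ribosomal RNAs held 1.53% ± 0.254, long non-coding RNAs 1.16% ± 0.0336 and small Cajal body RNAs 1.13% ± 0.108. Single entries set a large part of some classes. *Gm23119* alone stood at 9923 TPM among 34 small Cajal body RNA genes, of which 8 were at 1 TPM or more in every library. ENSMUSG00000098178.1 stood at 12226 TPM among 4103 genes without a match. Transcribed processed pseudogenes held 0.821% ± 0.0607, small nucleolar RNAs 0.373% ± 0.0916, mitochondrial transfer RNAs 0.281% ± 0.0320, microRNA genes 0.248% ± 0.0920, and TEC entries, which await experimental evidence, 0.241% ± 0.0279. Short classes weigh more by TPM than by counts, since division by a small length raises them: the 6766 genes under 200 bases held 2.77% of TPM.

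Imprinted and nuclear RNAs led the long non-coding class. *H19*, the maternally expressed imprinted RNA, measured 1404, 1432, 1640, 1420 and 1477 TPM, and *Malat1*, an abundant nuclear RNA, 1393, 1360, 1484, 1422 and 1354 TPM. Both were steady, with CVs of 6.54% and 3.77%. Other classes were led by *mt-Tl1* (2002 ± 286 TPM) and *mt-Tm* (332 ± 44.0) among mitochondrial transfer RNAs, by *Mir6236* (1658 ± 812) and *Mir703* (61.1 ± 18.5, 62.8% found elsewhere) among microRNA genes, and by *Gm24339* and *Gm26397* among small nucleolar RNAs. *Gm24339* measured 1865, 1918, 1923, 953 and 1262 TPM and *Gm26397* 889, 814, 675, 247 and 234 TPM, both lower in replicates 4 and 5. *Gm22009* at 544 ± 40.2 TPM came after *Gm23119* among small Cajal body RNAs. By the mean, *Rps7-ps3* and *Tpt1-ps3* led the transcribed processed pseudogenes, with 85.5% and 97.8% of their stretches found elsewhere. *Rps7-ps3* measured 1498, 1561, 1316, 121 and 150 TPM and *Tpt1-ps3* 927, 845, 679, 954 and 986 TPM, so the former was higher in replicates 1 to 3 and the latter in replicates 4 and 5. *Gm49338* and *Gm10416* led the TEC entries at 22.7 ± 1.49 and 17.6 ± 1.57 TPM, the latter with 25.4% found elsewhere. *Mir6236* was lower in replicates 4 and 5, at 896 and 841 TPM, than in replicates 1 to 3, at 2526, 2453 and 1576 TPM. The long non-coding *Xist*, named here after its values were seen, was at 0.0553 ± 0.0203 TPM.

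**Figure D2:**
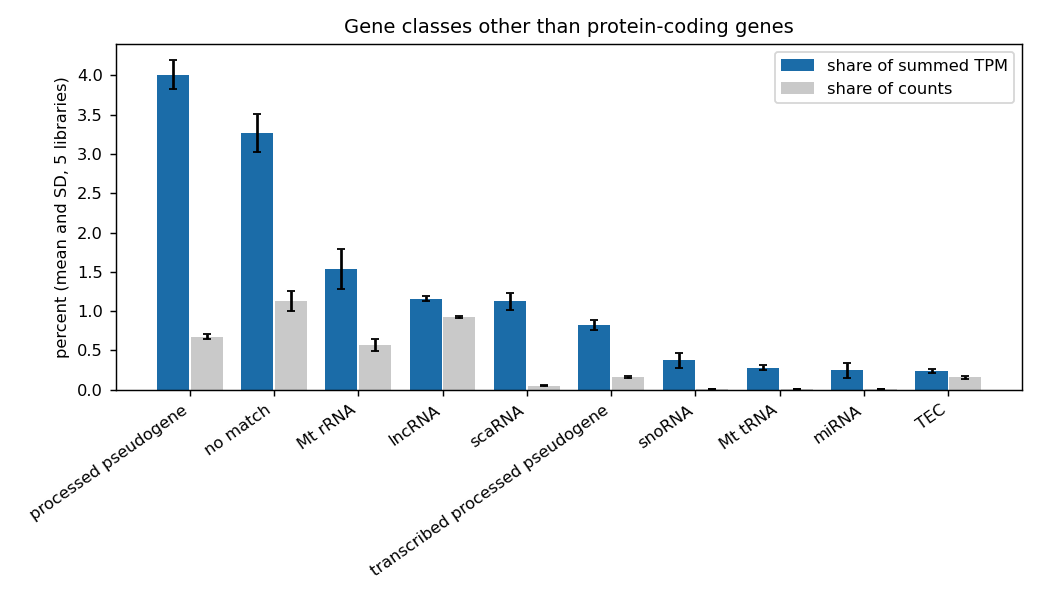
Percent of summed TPM (blue) and of counts (grey) in each gene class other than protein-coding genes, as mean and SD over the 5 control libraries. Processed pseudogenes held 4.01% of TPM and 0.672% of counts, and small Cajal body RNAs 1.13% and 0.0532%.

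By summed TPM, the Sertoli list was the highest of the cell type lists, and *Aard* alone gave 25.8% of its sum. The 22 members summed to 11662, 11388, 11292, 11806 and 11636 TPM in replicates 1 to 5, a mean of 11557 ± 211, a CV of 1.83%. In every library 21 members were at 1 TPM or more and 19 at 10 TPM or more. The highest members were *Aard*, the X-linked homeobox gene *Rhox8* (2714 ± 299 TPM, 17% of stretches elsewhere), the cystatin gene *Cst9* (1289 ± 119) and the lysosomal protease gene *Ctsl* (802 ± 63.9). *Amh* measured 637, 629, 714, 639 and 673 TPM. *Inha*, the inhibin alpha subunit, measured 619, 663, 643, 497 and 476 TPM and was lower in replicates 4 and 5 than in the others.

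Transcription factors of the Sertoli lineage were also present. *Sox9*, the factor that sets the Sertoli fate, measured 470, 478, 540, 352 and 356 TPM, again lower in replicates 4 and 5. *Dmrt1*, which maintains that fate and is also made in germ cells, measured 375, 370, 360, 375 and 373 TPM and hardly varied. Some members of the list that mark mature Sertoli cells were low. *Gata1* measured 9.12, 8.41, 8.31, 4.07 and 4.21 TPM, while the androgen-dependent *Rhox5* stood at 3.95 ± 1.47 and the transferrin gene *Trf* at 0.624 ± 0.154, with 63.5% of its exon bases under another gene. *Cldn11*, a tight junction gene of the later blood-testis barrier, was at 261, 237 and 222 TPM in replicates 1 to 3 and at 139 and 157 TPM in replicates 4 and 5. The median member of the list stood at 211 ± 14.1 TPM.

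The fetal Leydig list summed to 1362, 1400, 1437, 1584 and 1598 TPM, a mean of 1476 ± 108, and all 14 members were at 1 TPM or more in every library. The steroid pathway ran from cholesterol import to androgen. *Star*, which brings cholesterol into the mitochondrion, stood at 119 ± 14.2 TPM and *Cyp11a1*, which cleaves its side chain, at 33.2 ± 7.57. *Hsd3b1* measured 332, 368, 325, 469 and 466 TPM and *Cyp17a1* 236, 239, 274, 297 and 302 TPM. *Hsd3b1* exceeded *Cyp11a1* 11.9-fold ± 0.990, *Cyp17a1* exceeded it 8.29-fold ± 0.998 and *Star* 3.66-fold ± 0.390, in 5 of 5 libraries. All these genes were higher in replicates 4 and 5 than in each of the others. *Nr5a1*, the nuclear receptor that drives steroid genes and is also made in Sertoli cells, stood at 192 ± 15.8 TPM, and *Ren1*, renin, at 121 ± 7.30. *Lhcgr*, the receptor of luteinizing hormone, stood at 25.3 ± 1.89 TPM.

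Genes of the adult Leydig generation differed among themselves. *Hsd17b3*, the enzyme of the last step to testosterone, measured 772, 733, 706, 579 and 582 TPM and was higher than *Hsd3b1* 1.79-fold ± 0.518. *Hsd17b3* is known to be made in Sertoli cells of the fetal testis. The other defining genes of adult Leydig cells were near 0: *Hsd3b6* at 0.213 ± 0.160 TPM, with 27% of its stretches elsewhere, *Hsd11b1* at 0.543 ± 0.222 and *Sult1e1* at 0.826 ± 0.585. *Akr1c14* and *Vcam1*, which are less specific, stood at 27.8 ± 3.05 and 20.2 ± 2.42 TPM. Of the genes listed for adrenal-like steroid cells, *Nr0b1* stood at 84.7 ± 19.5 TPM and alone gave 80.3% of the sum of the list. *Cyp21a1* stood at 11.6 ± 1.45 with 42% of stretches elsewhere, *Mrap* at 4.93 ± 1.26 and *Cyp11b1* at 3.65 ± 0.441 with 29% elsewhere. The adrenal zone gene *Cyp11b2* was at 0.0448 ± 0.10.

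Of the 5 principal lists, that of the peritubular myoid cells varied most between the libraries, with a CV of 19.8%. Its 10 members, genes of smooth muscle, summed to 5283, 5343, 5312, 3651 and 3617 TPM, a mean of 4641 ± 920. *Acta2*, smooth muscle actin, measured 2244, 2289, 2288, 1474 and 1454 TPM and *Myl9*, a myosin light chain, 1800, 1805, 1748, 1382 and 1361 TPM. Replicates 4 and 5 lay below every one of replicates 1 to 3 in both genes. The difference was wider for other contractile genes: *Actg2* measured 72.4, 77.4, 74.6, 21.9 and 24.8 TPM, *Cnn1*, calponin, 75.0, 69.9, 64.3, 29.7 and 33.1 TPM, and *Tagln*, transgelin, 238, 255, 235, 127 and 125 TPM. *Tpm2* (260 ± 48.4), *Myh11* (244 ± 53.3) and *Mylk* (183 ± 29.3) completed the highest 6 with *Tagln*. *Des*, desmin, did not share the difference, at 25.7, 28, 32.2, 26.1 and 26.1 TPM.

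Stromal genes summed to 6185, 6206, 6752, 4967 and 5006 TPM, a mean of 5823 ± 797, and all 15 members were at 10 TPM or more in every library. Collagens parted the libraries in the same way as the smooth muscle genes. *Col1a1* measured 1683, 1680, 1947, 784 and 795 TPM and its partner chain *Col1a2* 415, 422, 446, 235 and 238 TPM, a ratio of 3.82 ± 0.459 within a library. That ratio depends on the exon lengths, 6563 bases for *Col1a1* and 12426 for *Col1a2*. The counts lay closer, at 55497 to 155153 for *Col1a1* and 31439 to 67312 for *Col1a2*. *Postn*, periostin, measured 75.2, 73.5, 76.5, 18.6 and 18.3 TPM, and *Lum*, lumican, 42.0, 40.4, 38.5, 20.4 and 21.4 TPM. *Col3a1* at 649, 651, 749, 529 and 526 TPM and *Mfap4* at 1171, 1174, 1160, 982 and 1007 TPM were lower in replicates 4 and 5 by less. Some other members were not lower there. *Dlk1*, an imprinted Notch-like protein, measured 764, 790, 907, 945 and 978 TPM and *Dcn*, decorin, 709, 710, 687, 757 and 728 TPM. *Pdgfra* measured 163, 166, 193, 210 and 213 TPM, higher in replicates 4 and 5. *Nr2f2* (88.5 ± 5.10) and *Igf1* (132 ± 4.42), genes of interstitial progenitors and growth signals, overlapped between the sets.

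Germ cell genes summed to 1063, 1058, 931, 1126 and 1117 TPM, a mean of 1059 ± 78.0, with all 20 members at 1 TPM or more in every library and 16 at 10 TPM or more. *Mael*, which acts with piRNAs in silencing transposons, measured 297, 332, 265, 284 and 302 TPM. *Dazl*, an RNA-binding protein of the germ line, measured 280, 254, 209, 322 and 323 TPM and *Ddx4* 90.1, 86.2, 80.4, 128 and 121 TPM. *Dazl* and *Ddx4* were higher in replicates 4 and 5 than in the others, while *Mael* overlapped between the sets. Other genes of the piRNA pathway were led by the helicase *Mov10l1* at 65.3 ± 5.56 TPM, ahead of *Stk31* at 43.1 ± 9.30. *Sall4*, a factor of the stem and progenitor pool, stood at 45.3 ± 4.08.

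Genes of the stages of the germ line were listed apart. Of the 18 genes of undifferentiated spermatogonia, 16 were at 1 TPM or more in every library, led by *Foxo1* (45.0 ± 2.46 TPM), *Etv5* (43.5 ± 2.01, 27% of stretches elsewhere), *Zbtb16* (40.2 ± 3.57), *Ret* (31.6 ± 1.77), *Id4* (30.3 ± 1.81) and *Gfra1* (29.8 ± 3.95), several of which somatic cells also make. The list summed to 323 ± 17.0 TPM. Genes of differentiating spermatogonia were present too, led by *Ccnd2*, cyclin D2, at 266 ± 22.1, a gene of dividing somatic cells as well. *Stra8*, the gene induced by retinoic acid, measured 48.5, 47.1, 44.0, 60.2 and 52.5 TPM, *Rhox13* stood at 26.9 ± 3.51, *Sohlh2* at 22.8 ± 1.51, *Sohlh1* at 18.8 ± 4.22 and the DNA methyltransferase *Dnmt3b* at 13.6 ± 1.3. *Kit*, the receptor of differentiating spermatogonia, measured 11.1, 10.7, 11.6, 14.0 and 13.7 TPM. *Stra8* exceeded *Kit* 4.14-fold ± 0.302 in 5 of 5 libraries.

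Genes of meiosis were uneven and those of spermatids were almost silent. Of 16 spermatocyte genes 10 were at 1 TPM or more in every library. *Hspa2* (63.5 ± 10.8 TPM), *Sycp1* (62.2 ± 15.9), *Tex15* (57.4 ± 4.5), *Sycp3* (20.7 ± 2.41), the linker histone *H1f6* and *Hormad1* (11.5 ± 1.78, 27% of stretches elsewhere) led. *H1f6* measured 22.1, 20.9, 25.8, 13.1 and 13 TPM, lower in replicates 4 and 5. *Sycp1* measured 52.5, 50.4, 49.4, 82.0 and 76.9 TPM, and encodes a structural protein of the synaptonemal complex. The other 4 of those 10 had means of 2.69 to 9.25 TPM. The remaining 6 members had means below 1 TPM, among them *Spo11* (0.767 ± 0.393), *Msh4* (0.667 ± 0.150), *Meiob* (0.414 ± 0.183), *Pgk2* (0.348 ± 0.177) and *Ccna1* (0.296 ± 0.156). The 12 spermatid genes together summed to 7.66 ± 0.946 TPM. *Prm1* and *Prm2*, the protamines that pack sperm chromatin, and *Tnp2*, a transition protein, had no count in any of the 5 libraries, and *Spaca1* at 2.79 ± 0.968 and *Tnp1* at 2.35 ± 0.602 TPM were the highest of the rest. The remaining spermatid genes among the highest 6 were *Acr* (0.756 ± 0.377), *Tssk6* (0.671 ± 0.272), *Gapdhs* (0.292 ± 0.240) and *Akap4* (0.281 ± 0.126).

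**Figure D3:**
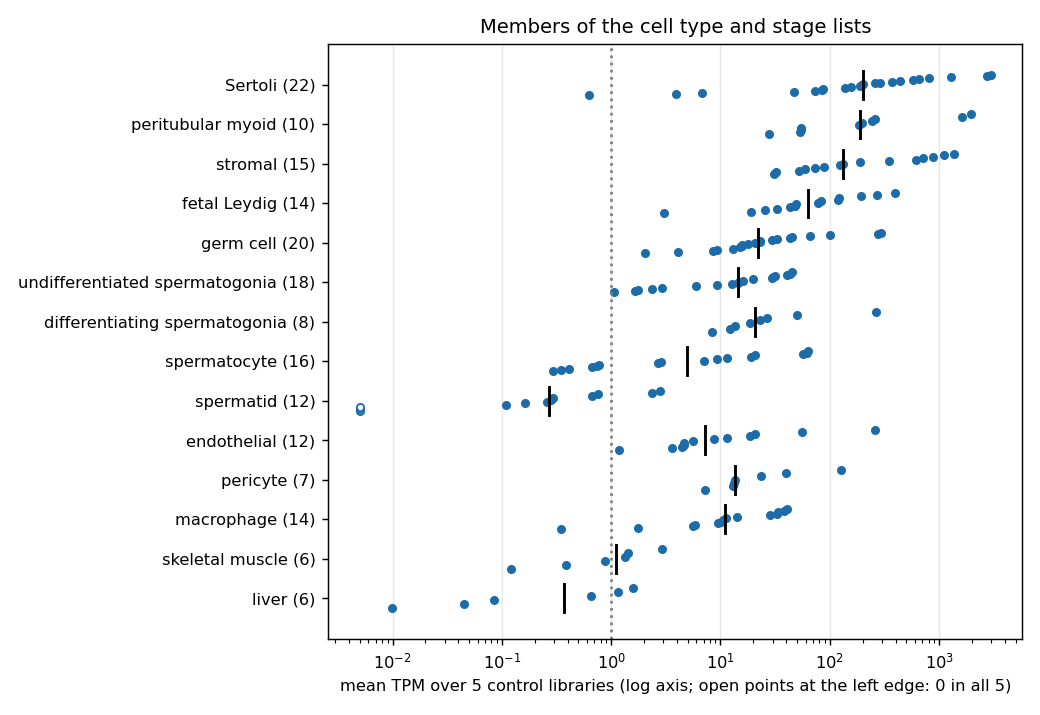
Mean TPM over the 5 control libraries (x axis, log scale) of each member of 14 lists (y axis, number of members in brackets), with the median member as a black bar and 1 TPM as a dotted line. Sertoli, myoid and stromal genes lie to the right, and 3 spermatid genes, at 0 in all libraries, are drawn as open points at the left edge.

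The germ cell list and the spermatid list lay at opposite ends of expression within the germ line, and the sequence before their start sites was read as a description. Promoters from RefSeq on GRCm38.p6 were present for 14 of the 20 germ cell genes and 10 of the 12 spermatid genes. In the 250 bases before the start, the germ cell genes held a median of 18.5 CpG dinucleotides and the spermatid genes 1.5, against 6 over 27025 genes, taking the richest listed start of a gene. The medians of the Sertoli, myoid, stromal and fetal Leydig genes were 7, 6, 5 and 4.

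These bases were searched on both strands for 5 motifs in 6 lists, and a gene was counted where any of its listed starts held a match. CACGTG, an E-box, was singled out after its matches had been seen. It was found in 6 of the 14 germ cell genes (42.9%) and 3 of 13 Sertoli genes, against 6.86% of all genes. None of the 7 fetal Leydig, 7 myoid, 9 stromal and 10 spermatid genes held it. CACGTG itself holds a CpG, and the germ cell genes had a median of 18.5 CpG against 6 over all genes. A gene with several listed starts, such as *Tdrd1* with 3, also has more bases searched. The part of either in the difference was not tested. AAGGTCA, the core site of the receptor encoded by *Nr5a1*, was found in 2 of the 10 spermatid genes and in none of the other 5 lists, the fetal Leydig list included, against 4.70% of all genes. The CArG box, bound by serum response factor, was found in 1 of 7 myoid and 2 of 10 spermatid genes and in none of the other lists, against 1.62%. TATAAA was found in 3 germ cell, 2 Sertoli, 2 fetal Leydig, 2 stromal, 1 spermatid and 0 myoid genes, against 14.3%. AGATAA, a site of factors such as that encoded by *Gata4*, was found in 2 spermatid genes, 1 gene each of the Sertoli, fetal Leydig and stromal lists, and 0 germ cell and 0 myoid genes, against 11.4%. A match is a description of letters and not a site in use, the motifs were chosen with the levels known, and many listed genes have no entry. High level did not require a match: *Dazl*, at 277 ± 48.2 TPM and with 20 CpG dinucleotides, holds no CACGTG and is not shown. Below are the 250 bases before the start of 3 germ cell genes picked because they hold CACGTG, marked in capitals. The 2 protamine genes, which hold none, follow, and each sequence is read on the strand of its gene.
Ddx4: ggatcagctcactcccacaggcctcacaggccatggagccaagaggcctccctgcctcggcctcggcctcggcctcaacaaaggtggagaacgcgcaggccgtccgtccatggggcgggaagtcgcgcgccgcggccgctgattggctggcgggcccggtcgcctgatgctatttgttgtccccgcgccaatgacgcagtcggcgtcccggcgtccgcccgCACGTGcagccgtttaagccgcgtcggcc
Mael: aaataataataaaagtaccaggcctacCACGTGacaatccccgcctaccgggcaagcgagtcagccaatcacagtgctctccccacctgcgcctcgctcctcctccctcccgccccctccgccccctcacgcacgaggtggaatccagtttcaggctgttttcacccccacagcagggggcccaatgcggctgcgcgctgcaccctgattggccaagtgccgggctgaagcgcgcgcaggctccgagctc
Mov10l1: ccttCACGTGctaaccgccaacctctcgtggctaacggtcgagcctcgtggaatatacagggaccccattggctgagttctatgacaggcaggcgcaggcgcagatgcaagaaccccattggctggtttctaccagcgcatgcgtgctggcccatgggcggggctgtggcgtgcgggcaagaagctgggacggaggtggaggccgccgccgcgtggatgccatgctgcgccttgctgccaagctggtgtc
Prm1: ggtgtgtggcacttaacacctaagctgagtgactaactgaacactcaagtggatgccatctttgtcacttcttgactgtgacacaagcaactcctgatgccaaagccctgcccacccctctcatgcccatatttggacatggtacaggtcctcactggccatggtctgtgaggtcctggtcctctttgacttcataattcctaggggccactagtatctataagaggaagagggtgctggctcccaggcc
Prm2: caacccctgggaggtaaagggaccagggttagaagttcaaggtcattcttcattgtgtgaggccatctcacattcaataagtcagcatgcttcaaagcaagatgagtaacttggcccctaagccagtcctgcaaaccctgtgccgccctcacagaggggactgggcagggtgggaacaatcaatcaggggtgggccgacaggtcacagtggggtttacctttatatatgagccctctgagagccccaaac
These lie at chr13:112652311-112652560 (minus strand), chr1:166238745-166238994 (minus), chr15:88982744-88982993 (plus), chr16:10796824-10797073 (minus) and chr16:10792106-10792355 (minus). The E-box begins 29 bases before the RefSeq start in *Ddx4*, 223 in *Mael* and 246 in *Mov10l1*. In the counting annotation *Ddx4* reaches to 112652475 and *Mov10l1* begins at 88982909. Part of both windows, and the E-box of *Ddx4*, thus lie within the gene as counted. The first 3 sequences hold 31, 18 and 19 CpG dinucleotides, and those of *Prm1* and *Prm2* hold 0 and 2.

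The endothelial, pericyte, macrophage and erythroid lists each summed to less than any of the 5 principal lists in every library. By summed TPM the Sertoli list exceeded the stromal list 2.02-fold ± 0.314, the myoid list 2.58-fold ± 0.587, the fetal Leydig list 7.86-fold ± 0.517 and the germ cell list 11-fold ± 0.696, in 5 of 5 libraries each. The stromal list exceeded the myoid list, which stood at 0.792 ± 0.0646 of it, and the fetal Leydig list exceeded the germ cell list 1.40-fold ± 0.102, again in 5 of 5. By the median member, which a single abundant gene cannot lift, the order of myoid and stromal lists turned: the myoid median was higher in 5 of 5 libraries, 1.66-fold in replicates 1 to 3 but only 1.03-fold in replicates 4 and 5. The Sertoli median exceeded the myoid median in 4 of 5 libraries, with a ratio of 1.16 ± 0.241, so these neighbours did not differ beyond their spread. In the mean of replicates 1 to 3 the myoid median was the higher, with a Sertoli to myoid ratio of 0.986, against 1.42 in replicates 4 and 5. Without division by length the stromal list came first by sum and by median. The lists differ in size, with 22 members for Sertoli and 10 for myoid cells. They were chosen for specificity and with earlier results of these data known. Their sums thus depend on the choice of members, and rank these genes and not the numbers of cells.

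**Figure D4:**
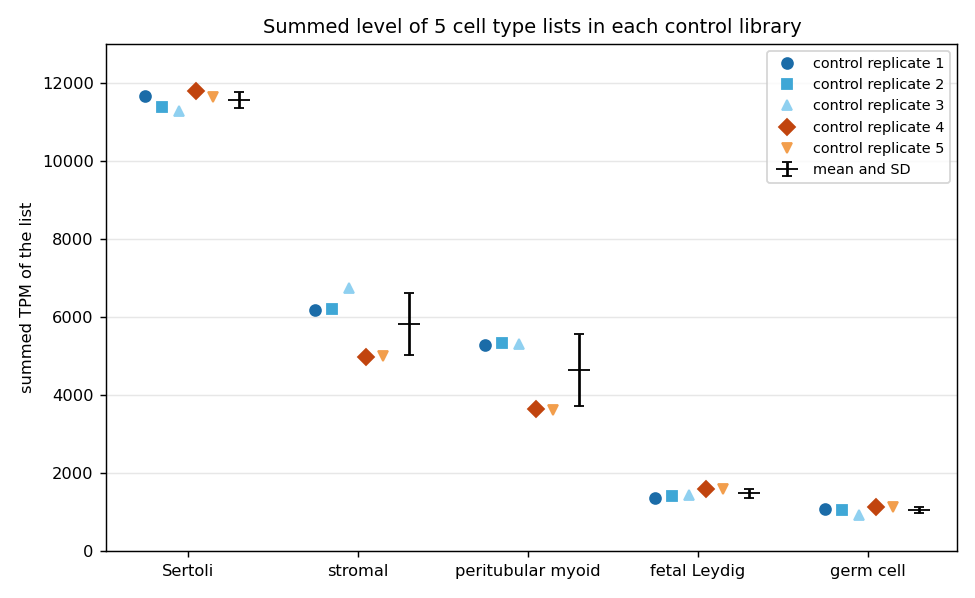
Summed TPM (y axis) of the Sertoli, stromal, peritubular myoid, fetal Leydig and germ cell lists (x axis) in each control replicate, with the mean and SD in black. The Sertoli sum stays between 11292 and 11806 TPM, while the myoid sum is 5283 to 5343 TPM in replicates 1 to 3 and 3617 to 3651 TPM in replicates 4 and 5.

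*Cdh5*, VE-cadherin, stood apart from the other endothelial genes. It measured 229, 236, 285, 270 and 270 TPM, 14.1-fold ± 2.13 the level of *Pecam1*, which stood at 18.6 ± 2.11 TPM. *Eng* (55.9 ± 9.47), *Kdr*, *Tek* (11.4 ± 0.989) and *Cldn5* followed, and the median of the 12 means was 7.18 TPM. *Kdr* measured 25, 22.4, 26.3, 14.6 and 15.4 TPM and *Cldn5* 12.2, 7.34, 11.5, 7.01 and 5.94 TPM, both lower in replicates 4 and 5. *Mcam* at 128 ± 15.3 TPM was above the other pericyte genes, such as *Rgs5* (39.8 ± 5.89), *Pdgfrb* (23.7 ± 3.03), *Notch3* (13.7 ± 2.15), *Abcc9* (13.3 ± 0.745) and *Cspg4* (13.1 ± 2.60). Macrophage genes summed to 243 ± 6.92 TPM, the steadiest of the cell type lists beside the Sertoli list, and were led by *Lyz2* (40.7 ± 9.78, 22% of stretches elsewhere), *Cd68* (37.8 ± 4.03), *C1qb* (33.5 ± 2.28), *Fcer1g* (33.2 ± 3.82), *C1qa* (28.1 ± 5.49) and *Mrc1* (14.2 ± 1.28). *Cd163*, a gene of some resident macrophages, was at 0.349 ± 0.219 TPM.

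Genes of blood and of tissues near the testis were mostly low. The beta-globin gene *Hbb-bs* measured 67.1, 69.0, 56.2, 117 and 113 TPM, higher in replicates 4 and 5, and *Hbb-bt* stood at 83.1 ± 12.9, with 47% and 31% of stretches elsewhere, and the erythroid enzyme *Alas2* at 5.32 ± 0.839. The alpha-globin genes *Hba-a1* and *Hba-a2*, near-identical copies with 69.5% and 55.2% of stretches elsewhere, were at 0.813 ± 0.362 TPM and at 2.73, 1.38, 1.6, 0 and 0 TPM, and *Slc4a1* at 0.705 ± 0.0751. Genes of the epididymis were near 0, with *Lcn5* at 0 in all libraries and *Lcn8* at 0.110 ± 0.178, *Crisp1* at 0.116 ± 0.134, and *Adam7* at 0.145 ± 0.0283. *Pax8* of the mesonephric duct stood at 3.17 ± 0.726 TPM and *Pax2* measured 3.62, 2.89, 3.68, 1.94 and 2.26 TPM. The fat genes *Adipoq* (0.256 ± 0.241), *Cidec* (0.0962 ± 0.104) and *Lep* (0.0214 ± 0.0293) were near 0 while *Plin1* stood at 11.7 ± 1.16 and *Fabp4* measured 2.37, 1.56, 1.93, 0.620 and 1.10 TPM. *Plin1* coats lipid droplets, which Leydig cells also hold. Skeletal muscle genes summed to 7.04 ± 1.66 TPM, led by *Tnnt3* (2.89 ± 1.32), and liver genes to 3.54 ± 2.21 TPM, led by *Apoa1* (1.59 ± 1.26) and *Apoa2* (1.16 ± 0.916).

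Factors of sex determination differed widely in level. Beside *Sox9*, *Dmrt1* and *Nr5a1*, *Gata4* stood at 345 ± 26.2 TPM and *Wt1* at 137 ± 13.3, while *Sry*, the switch that acts in the fetal gonad, was at 0.443 ± 0.216. *Lhx9* stood at 63.1 ± 7.63 TPM, the Polycomb gene *Cbx2* at 27.4 ± 1.73, *Zfpm2*, the partner of GATA factors, at 20.1 ± 2.78, and *Fgf9* at 2.17 ± 0.523. Genes that act in the ovarian pathway were not all silent: *Rspo1* measured 26, 27.9, 26, 34.6 and 41.1 TPM, *Wnt4* stood at 6.39 ± 0.802, *Bmp2* at 5.57 ± 0.332, and *Fst* at 9.55, 9.72, 10.3, 20.3 and 19.5 TPM. *Rspo1* and *Fst* were higher in replicates 4 and 5. On the Y chromosome, which held 0.0238% ± 0.00217 of TPM with 8 genes at 1 TPM or more in every library, the highest were *Ddx3y* (73.0 ± 6.87, 19% of stretches elsewhere), *Eif2s3y* (41.7 ± 6.29), *Uba1y* (38.5 ± 2.36, 60.5% elsewhere), *Rbmyf9* (23.0 ± 4.26, 78.8% elsewhere) and *Uty* (15.8 ± 1.56). *Eif2s3y* and *Uba1y* are needed in or known from spermatogonia.

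Of the genes of signals between cells, all 16 ligands and 21 of 22 receptors were at 1 TPM or more in every library, with *Rxfp2* as the exception. *Amh* exceeded its receptor *Amhr2*, at 134 ± 4.68 TPM, 4.91-fold ± 0.169. *Gdnf*, the Sertoli factor for stem spermatogonia, measured 49.0, 52.3, 53.9, 39.8 and 40.1 TPM and exceeded its receptor *Gfra1* 1.58-fold ± 0.132, while the co-receptor *Ret* was close to *Gfra1*, with a ratio of 1.07 ± 0.135 and the higher level in 3 of 5 libraries. *Kitl*, made by Sertoli cells, stood at 187 ± 9.77 TPM, 15.4-fold ± 1.28 the level of *Kit*. *Dhh*, the hedgehog ligand of Sertoli cells, stood at 86.7 ± 8.02 TPM, 1.48-fold ± 0.166 the level of its receptor *Ptch1*, and *Gli1*, a target of the pathway, at 30.7 ± 1.26. *Smo* stood at 65.4 ± 2.89 TPM. *Pdgfa* (105 ± 6.78) was below *Pdgfra* in 5 of 5 libraries, at 0.569 ± 0.108 of it.

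The activin and inhibin subunits lay between 185 and 663 TPM in the 5 libraries. *Inhba*, the activin A subunit, measured 193, 189, 232, 318 and 306 TPM and *Inhbb* 188, 185, 227, 194 and 197 TPM. *Inhba* was close to *Inhbb* in replicates 1 to 3 and above it in replicates 4 and 5, and *Inha* exceeded *Inhba* 2.52-fold ± 0.917. Receptors for these ligands were lower, with *Acvr1b* at 22.7 ± 2.34, *Acvr2a* at 18 ± 0.992 and *Acvr2b* at 8.80 ± 1.32 TPM, while *Bmpr1a*, which also serves *Amh*, stood at 124 ± 4.66 and *Bmp4* at 40.3 ± 3.71. *Igf1* exceeded *Igf1r* 3.44-fold ± 0.358, and *Igf2*, with 62.8% of its exon bases under another gene, stood at 116 ± 14.6. *Insr* stood at 14.1 ± 1.78. *Insl3*, the Leydig hormone of testis descent, stood at 43.1 ± 2.59 TPM although 64.8% of its exon bases lie under another gene, and its receptor *Rxfp2* at 0.193 ± 0.130. *Wnt5a* (59.6 ± 4.07) and its receptor *Ror2* (16.9 ± 3.44), *Cxcl12* (46.5 ± 2.65) and *Cxcr4* (20.3 ± 1.92), *Fgf2* (31 ± 2.35) and *Fgfr1* (28.4 ± 2.31), *Vegfa* (22.3 ± 0.664) and *Flt1* (4.44 ± 0.466), and *Csf1* (9.75 ± 1.74) and *Csf1r* (10.2 ± 0.887) completed the pairs.

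Receptors for hormones differed widely in level. *Thra*, a thyroid hormone receptor, was the highest at 115 ± 7.68 TPM and exceeded *Thrb* 32.2-fold ± 3.73. *Fshr*, the Sertoli receptor of follicle-stimulating hormone, measured 74.1, 73.4, 67.3, 76.6 and 75.0 TPM, 2.91-fold ± 0.305 the level of *Lhcgr*. *Nr3c1*, the glucocorticoid receptor, stood at 33.9 ± 1.54, *Ghr* at 15.9 ± 1.07 and *Prlr* at 15.7 ± 2.56. The estrogen receptor genes *Esr1* and *Esr2* stood at 10.8 ± 0.984 and 8.99 ± 2.01 TPM. This group summed to 322 ± 6.20 TPM, a CV of 1.93%.

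Genes of retinoic acid, the signal for spermatogonial differentiation, covered synthesis, breakdown and response. *Aldh1a1* measured 433, 410, 370, 459 and 432 TPM and exceeded *Aldh1a2* 7.71-fold ± 1.65, and *Aldh1a3* stood at 4.88 ± 0.359. *Aldh1a2* measured 47.2, 45.7, 43.3, 76.8 and 73.8 TPM, higher in replicates 4 and 5. *Cyp26b1*, the enzyme that degrades retinoic acid, measured 85.0, 84.9, 115, 87.2 and 93.5 TPM, and *Cyp26a1* and *Cyp26c1* were at 0.727 ± 0.402 and 0.436 ± 0.0889. *Stra6*, the retinol importer, stood at 65.2 ± 9.61, the binding protein gene *Crabp1* at 40.8 ± 2.91, and the retinal reductase *Dhrs3* and the dehydrogenase *Rdh10* at 28.7 ± 2.90 and 14.5 ± 0.972. *Crabp2* measured 1.79, 1.74, 2.93, 0.631 and 0.402 TPM. *Rara* was the highest receptor at 133 ± 25.8 TPM, 27.5-fold ± 4.00 the level of *Rarg*, and *Rarb* was at 0.369 ± 0.102. Of their partners, *Rxra* stood at 46.4 ± 3.87, *Rxrb* at 9.62 ± 1.03 and *Rxrg* at 0.608 ± 0.348 TPM.

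Cell division, cholesterol supply and RNA decay were represented by nearly all members of their lists. All 14 proliferation genes were above 1 TPM, led by *Mki67* (282, 272, 350, 326 and 326 TPM), *Ccna2* (268 ± 32.1), *Pcna* (221 ± 10.4, 37% of stretches elsewhere), *Top2a* (164, 173, 185, 258 and 249 TPM), *Ccnb2* (191 ± 8.0) and the cell cycle inhibitor *Cdkn1c* (133 ± 17.7). *Top2a* and *Ccna2* were higher in replicates 4 and 5. All 14 genes of cholesterol synthesis and uptake were above 1 TPM, and among the highest were *Hmgcs1* (161 ± 6.71), *Srebf2* (72.2 ± 6.66), *Fdft1* (55.4 ± 5.88, 17% elsewhere) and *Cyp51* (50.3 ± 4.68). In the exosome list *Exosc3* (182 ± 11.5), *Exosc1* (127 ± 4.95), the helicase gene *Mtrex* (90.4, 91.1, 92.8, 157 and 155 TPM), the nuclear nuclease gene *Exosc10* (95.4 ± 3.58), *Exosc8* (60.2 ± 4.91) and *Dis3* were the highest 6. *Exosc10* exceeded *Dis3* 1.66-fold ± 0.122, and *Dis3* exceeded its cytoplasmic relative *Dis3l* 3.45-fold ± 0.172, in 5 of 5 libraries each. The order of *Exosc10* and *Dis3* rests on their exon lengths of 3594 and 7754 bases. By counts *Dis3* was the higher, at 4416 to 5541 against 3568 to 4135 for *Exosc10*. *Mtrex* was the member that differed most between the sets of replicates.

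Among the 10059 genes examined for variation, CVs had a 10th percentile of 4.16% and a 90th percentile of 18.4%, and 48 genes (0.477%) had a CV above 50%. Protein-coding genes made up 22 of these, which is 0.233% of the 9454 examined. The share was 3.02% for processed pseudogenes and 8.86% for transcribed processed pseudogenes. Processed pseudogenes had a median CV of 15.8% against 8.75% for protein-coding genes. The 10 largest CVs belonged in part to entries that a single library set. ENSMUSG00000099250.1, which lies within 2 bases of RefSeq *Rn7s2*, a 7SL RNA gene, measured 349, 4086, 378, 271 and 339 TPM, and ENSMUSG00000099021.1, at the position of *Rn7s1*, measured 563, 8.58, 8.78, 19.2 and 21.2 TPM. For each of these entries 49% of the exon bases lie under another gene on the same strand. The pseudogene *H2ac5-ps* measured 5.73, 4.96, 142, 1.39 and 2.38 TPM, and the histone gene *H3c15* 5.54, 4.33, 15.7, 3.55 and 47.3 TPM, with 55.4% and 64.2% of their stretches elsewhere.

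Other highly variable genes parted replicates 1 to 3 from 4 and 5. The pseudogenes *Gm13394* and *Rps15a-ps8* were at 0.184 to 0.494 TPM and at 0 to 0.238 TPM in replicates 1 to 3, and at 170 and 179 TPM and 65.7 and 68.4 TPM in replicates 4 and 5, with 97.3% and 33.4% of their stretches elsewhere. The pseudogenes *Gm16510* and *Gm5948* went the other way, from 74.6, 57.2 and 52.9 TPM to 0.372 and 0, and from 32.2, 38.4 and 26.1 TPM to 0 and 0.105, and 29.8% of the stretches of *Gm16510* lie elsewhere. Among protein-coding genes, *Upk3b*, a uroplakin gene also known from mesothelium, measured 3.46, 3.23, 2.99, 26.5 and 25.1 TPM, and *C3*, complement component 3, measured 2.59, 3.99, 3.19, 23.3 and 26 TPM. *Krt19* of the duct list followed them, at 3.44, 1.88, 3.37, 13.6 and 15.9 TPM. *Msln*, mesothelin, chosen after its values were seen, measured 0.517, 0.696, 0.273, 12.5 and 12.7 TPM. The part that surface or duct cells have in these differences was not tested.

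Of the 10 steadiest genes, *Copa*, a coat protein of vesicles, measured 113, 112, 114, 114 and 114 TPM, *Stip1*, a co-chaperone, 278, 274, 276, 274 and 275 TPM, and *Inpp5b*, a phosphatase of inositol lipids, 30.8, 31.1, 31, 31 and 31.1 TPM. Their CVs of 0.533%, 0.565% and 0.442% were below the counting error of 0.914%, 1.22% and 2.49%, and they were picked as the lowest of 10059 values. The others were *Isyna1*, *Nt5c*, *Ppp1r13b*, *Gde1*, *Ube2g1*, *Sc5d* and the pseudogene *Gm9531* (96.5% of stretches elsewhere), with CVs of 0.778% to 1.06%.

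**Figure D5:**
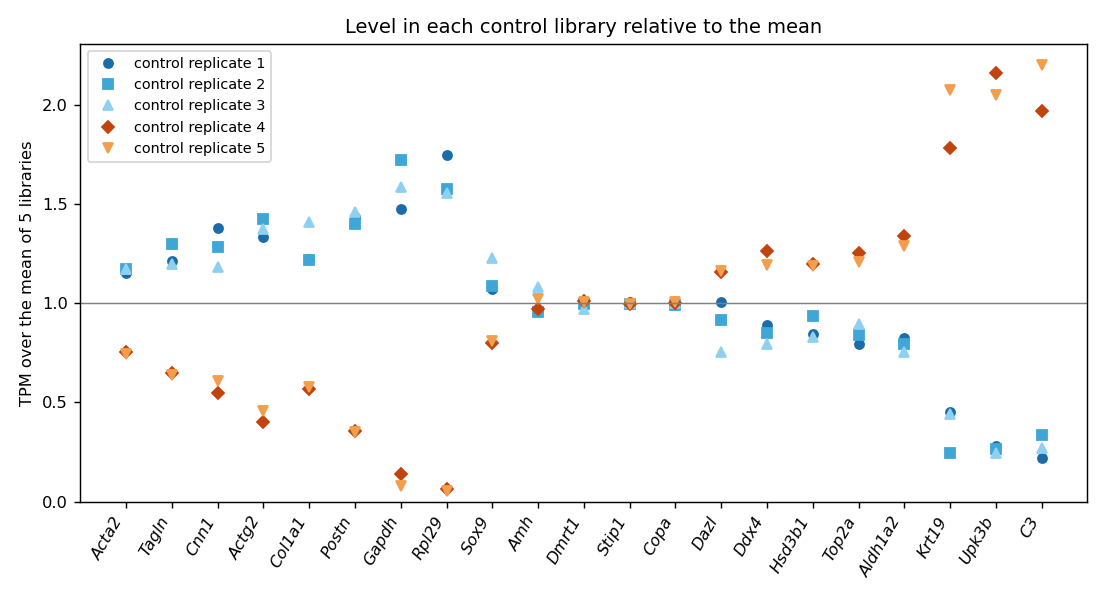
TPM of 21 genes in each control replicate, divided by the mean of the 5 libraries (y axis; the line marks 1). Smooth muscle and collagen genes, Gapdh and Rpl29 lie below the line in replicates 4 and 5, Upk3b, C3 and Krt19 lie above it there, and Dmrt1, Stip1 and Copa lie on it in all 5.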

How the data were processed

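Control testes from mice of postnatal day 4 (5 libraries, 1 mouse each) were analysed as deposited. The authors prepared strand-specific, rRNA-depleted libraries from total RNA, used cutadapt for trimming and HISAT2 for alignment, and counted them per gene with featureCounts. The deposited values are raw integer counts, with no normalization. The file header names featureCounts 1.6.4 and GENCODE release 18, on GRCm38 (GRCm38.p5 in the submitters' processing notes), while the methods name a later build. By the defaults of featureCounts, reads that map to several places or overlap several genes are not counted. A gene's deposited exon length is the union of its exons, which sets the scale of its TPM.

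TPM was computed from counts and length over all 54232 rows with Python 3.11.15 and pandas, and summarised as mean, SD and CV over libraries. Names and classes came from GENCODE M39 by gene identifier (50129 matched). Stretches of 32 bases were matched exactly in GRCm39, both strands. The 250 bases before RefSeq starts were searched for 5 motifs. edgeR (4.0.16, R 4.3.3) gave the TMM factors of 1 alternative. The functions were tested on simulated data. No test between groups was run, and no comparison with the knockout was made. Libraries were treated as separate mice.

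The libraries held 35391042 to 41104912 counts, and intervals from counting cover counting error only. Named were the 25 highest genes, up to 6 highest members and members at 0 of each list, all members of the sex determination, ligand, receptor, hormone receptor and retinoic acid lists, the 2 highest genes of each class with 0.1% of TPM or more, the 10 largest and 10 smallest CVs at 10 TPM and 100 counts or more, and the 5 highest Y genes, and others were named after their values were seen, as the report says. The members and the 28 lists were chosen with earlier results of these data known. Alternatives left out mitochondrial, short, non-coding or low-count genes, used CPM, TMM or the median, changed the threshold or left out libraries. Tables of upstream antisense transcripts were not used. Some genes that the rule names are not reported here.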

Additional observations from a re-analysis of the deposited data

Results flagged for a closer look

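In each group of 5 libraries the gap between the extreme library and its nearest neighbour was divided by the whole range, and values above 0.71 (Dixon's 95% value for 5) are given here, over 37 summaries and 269 genes at 10 TPM or more from all lists and the rule for named genes. For 5 values of 1 normal distribution chance gives about 1 in 20, and 15 of 269 genes passed, which is near that rate. The genes examined include the 10 of largest CV, which were picked by the spread that such a gap widens. The largest gaps were those of *ENSMUSG00000099021.1* (0.977), where replicate 1 stood apart, *ENSMUSG00000099250.1* (0.972), where replicate 2 did, and *H2ac5-ps* (0.969), where replicate 3 did. *Hbb-bt* (0.893) was lowest in replicate 3. Replicate 3 was also the highest library for *Ptch1* (0.843), *Cspg4* (0.810), *Gramd1b* (0.799), *Igf1r* (0.791), *Aurkb* (0.762), *Nr2f2* (0.748), *Inhbb* (0.724) and *Cyp26b1* (0.720), and the lowest for *Cdk1* (0.718). *H3c15* (0.721) was highest in replicate 5 and *Ube2g1* (0.720) in replicate 2. The sum of the endothelial list (0.839) was highest in replicate 3, at 449 TPM against 379 to 390 in the other libraries. *Gramd1b*, *Aurkb*, *Nr2f2* and *Cdk1* lie outside the highest 6 of their lists and are named for these gaps. With a number of genes near the rate of chance, these gaps describe single genes. Whether replicate 3 stands apart in more genes than chance would give was not tested.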

How the results depend on the processing

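Of 219 alternative values of 16 results, 175 lay within 1 SD of the value reported (within 1.5 times for counts and for the CV) and 44 moved. Leaving out any single replicate moved none of them, and neither did replicates 1 to 3 alone, TMM scaling, the median of libraries or another threshold. The SD is that of the same 5 libraries. For shares, sums and median members, 1 replicate left out, replicates 1 to 3 alone or the median thus cannot differ by 1 SD. Those values count among the 175 but could not have moved, so they do not show stability. In the next 4 alternatives fewer genes share the fixed total, which raises every level. Leaving out genes of mitochondrial DNA gave shares of 12% (25 highest genes), 87.6% (protein-coding) and 5.58% (ribosomal protein), sums of 12424 (Sertoli), 1588 (fetal Leydig) and 1139 TPM (germ cell), and median members of 226 (Sertoli), 69.2 (fetal Leydig), 144 (stromal) and 23.4 TPM (germ cell). Leaving out genes under 200 bases gave a protein-coding share of 89.1%, a Sertoli sum of 11885 TPM and median members of 66.2 (fetal Leydig) and 138 TPM (stromal). Protein-coding genes alone gave shares of 13.6% (25 highest genes) and 5.99% (ribosomal protein), sums of 13336 (Sertoli), 1703 (fetal Leydig), 6723 (stromal) and 1222 TPM (germ cell), and median members of 243, 74.3, 155 and 25.1 TPM in that order. Keeping genes with at least 10 counts gave a protein-coding share of 87.5%. CPM, without division by length, gave shares of 7.58% (25 highest genes), 96.3% (protein-coding), 2.42% (mitochondrial) and 2.50% (ribosomal protein), sums of 7273 (Sertoli), 3320 (myoid) and 11155 (stromal), and median members of 235 (Sertoli), 92.0 (fetal Leydig), 395 (stromal) and 29.6 (germ cell), so the stromal list then came first. Replicates 4 and 5 alone gave shares of 87.0% (protein-coding) and 8.03% (mitochondrial), a median CV of 3.46%, sums of 1591 (fetal Leydig), 3634 (myoid) and 4987 TPM (stromal), and median members of 196 (Sertoli) and 138 TPM (myoid), and the cause was not tested. By sum, the order of the 5 lists was the same under all alternatives but CPM. By the median member it changed under CPM and with replicates 1 to 3 alone, where the myoid list came before the Sertoli list. No paired analysis was possible because the result comes from no test between groups.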
